A study of Rattus norvegicus with 6 samples.

Results

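The genes described here form a set of 10 with known roles in carrying, receiving and damping Wnt signals. The cells were RUCA-I, an epithelial tumour line that came from the endometrium of a Lewis rat. The 10 genes comprise the ligands Wnt7a, Wnt7b and Wnt4, the receptors Fzd5 and Fzd6, and the co-receptors Lrp5 and Lrp6. The remaining genes, Axin1, Axin2 and Znrf3, belong to feedback and the destruction complex. The genes were chosen by their role in the pathway, with the FPKM values and fold changes of this same comparison known, and were taken by gene symbol from the authors' gene table, keeping rows that the authors tested and the longest locus where a symbol had several. This gave 8 genes of 26459 tested rows, while Axin1 and Znrf3 had no tested row under their symbols and were not analysed here. RNA-seq compared miR-203 -/- cells (KO, 3 independently generated lines) with wild-type cells (WT, 3 batches). All cells were untreated and grown to near confluence in medium with fetal calf serum, so the groups differ by label only in the miR-203 genotype and in being separate lines or batches. A difference that belongs to the lines and one that belongs to the lost microRNA cannot be told apart. The deposited table holds 1 FPKM value per gene row and group (fragments scaled to transcript length and library size), which pools the 3 samples, so no value per sample, SD or n stands behind a level, and read depth is unknown. Whether the labelled replicates are separate cultures is known only from the words line and batch, and the authors' own Cuffdiff test is the only measure against their spread.

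Wnt proteins are secreted, lipid-bearing ligands that bind a Frizzled receptor together with Lrp5 or Lrp6 at the membrane. Binding halts the destruction complex, built on the scaffold Axin, so that beta-catenin accumulates and acts with TCF/LEF factors in the nucleus. Axin2 and Znrf3 are themselves switched on by this route and damp it, the first by rebuilding the destruction complex and the second by removing Frizzled from the surface. In the mouse uterus Wnt7a is made by the luminal epithelium and is needed for normal patterning and gland formation of the reproductive tract, and Wnt4 is needed for the decidual response of the stroma.

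The microRNA removed by the labels' genotype is shown because its seed, bases 2 to 8 in capitals, is the stretch by which a microRNA recognises its targets. The mature sequences are from RefSeq (GRCr8), where they lie on the plus strand at chr6:137020756-137020777 for the 3p arm and chr6:137020718-137020738 for the 5p arm. No untranslated regions were used here, so matches to the seed in the Wnt genes were not analysed. No row carried a miR-203 symbol, so its loss rests on the labels.
rno-miR-203a-3p: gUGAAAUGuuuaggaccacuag
rno-miR-203a-5p: aGUGGUUCuuaacaguucaac

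Of the 8 measured genes, 3 were called at q under 0.05 in the authors' deposited table. Wnt7a and Lrp5 fell and Fzd5 rose in KO cells, while Wnt7b, Wnt4, Fzd6, Lrp6 and Axin2 did not pass the test. Over all 26459 tested rows the share called was 1.05%, with 0.491% higher and 0.556% lower in KO cells. The genes were chosen with these same values known, so their calls are a description and nothing is read from the count of 3. On the log2((KO + 1)/(WT + 1)) scale, which adds 1 FPKM to each value and understates the change of low genes, the 8 genes had a median of −0.20. Their range was −0.77 to 0.49, and 7 of 8 were lower in KO cells, called or not. Of these 7, 2 were called and 5 were not, and 3 of the uncalled genes lay within 1.1-fold either way. Since the genes were chosen with these values known, the shared direction is a description as well. Over the 18090 tested rows averaging at least 1 FPKM, the median was 0.0046, the quartiles were −0.11 and 0.13, and 48.9% were lower.

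**Figure D1:**
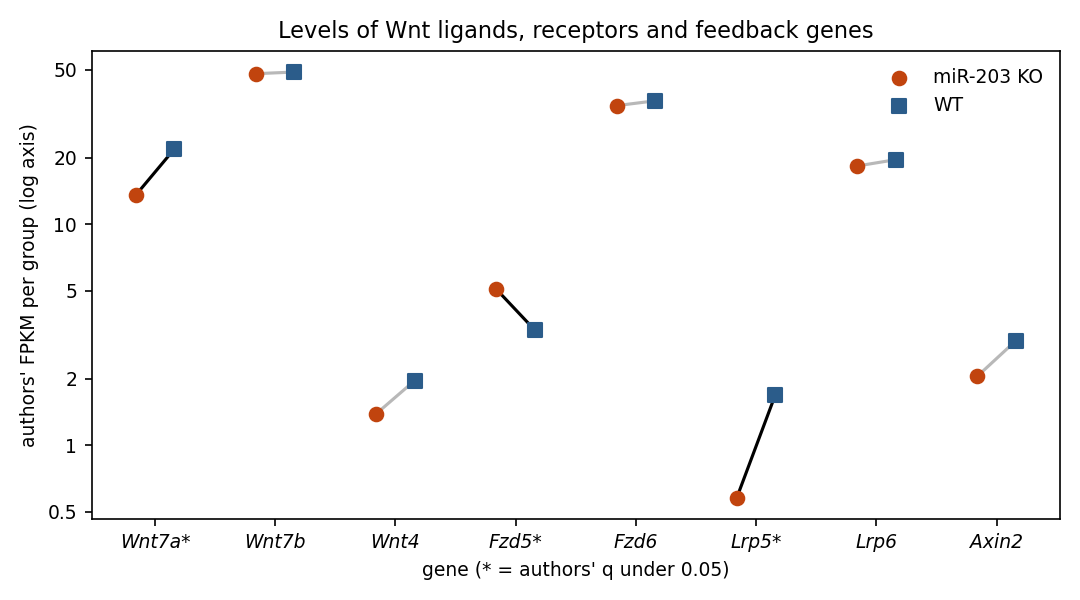
FPKM of each gene in miR-203 KO cells (circles) and WT cells (squares), 1 value per group, on a log axis, with black lines for genes called by the authors at q under 0.05 and grey lines for the others. Wnt7a stands at 13.5 FPKM in KO and 21.8 in WT cells and Fzd5 at 5.07 and 3.31, while Wnt7b, Fzd6 and Lrp6 are nearly level.

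Among the ligands, Wnt7b was the most abundant and Wnt7a the only one called. Wnt7a had 13.5 FPKM in KO cells, against 21.8 FPKM in WT cells, which is 1.61-fold lower. Its log2 fold in the authors' deposited table was −0.69 with p = 5e-05 and q = 0.00756. The p is the smallest in that table and is shared by 175 called rows, so it does not rank the gene among them. The Wnt7a row spans 46241 bp on chromosome 4 (122994350 to 123040590, rn6).

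Wnt7b, the closest relative of Wnt7a in the family, had 47.9 FPKM in KO cells and 48.8 FPKM in WT cells. Its log2 fold was −0.025 with q = 0.997 in the authors' deposited table, so no change of Wnt7b passed while Wnt7a fell. The difference between the fold changes of these genes was not tested. Wnt7a made up 22.0% of the summed Wnt7a and Wnt7b level in KO cells and 30.9% in WT cells, and the sum was 61.5 FPKM in KO cells and 70.6 FPKM in WT cells. Wnt7b was thus 3.54 times as abundant as Wnt7a in KO cells and 2.23 times in WT cells. The main Wnt7b row lies on chromosome 7 (126421365 to 126462041, rn6). A second Wnt7b row of 717 bp on the same chromosome (126463553 to 126464269) had 0.556 FPKM in KO cells and 0.218 FPKM in WT cells and in the authors' deposited table it did not pass (q = 0.889). Its ratio thus ran opposite to that of the main row, from a level under 1 FPKM in both groups.

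Wnt4 was far below Wnt7a and Wnt7b, with a mean level at percentile 41.1 of tested rows. It had 1.39 FPKM in KO cells and 1.96 FPKM in WT cells, with p = 0.150 and q = 0.997 in the authors' deposited table. Its row covers 1579 bp on chromosome 5 (155668672 to 155670250, rn6), against 46241 bp for Wnt7a and 40677 bp for the main Wnt7b row. How much of the Wnt4 gene this row covers was not tested.

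The Frizzled receptors Fzd5 and Fzd6, which bind the ligands, were unlike in level, and only Fzd5 was called. The difference between their fold changes was not tested. Fzd5, a receptor described for Wnt7a in human endometrial cancer cells, had 5.07 FPKM in KO cells, against 3.31 FPKM in WT cells. It rose 1.53-fold, with a log2 fold of 0.61, p = 5e-05 and q = 0.00756 in the authors' deposited table. Its mean of 4.19 FPKM leaves it out where only rows averaging at least 5 FPKM are tested. Fzd6, a receptor best known from planar polarity and hair patterning in the mouse, had 34.4 FPKM in KO cells and 36.1 FPKM in WT cells, with q = 0.997. Fzd6 thus exceeded Fzd5 6.78-fold in KO cells and 10.9-fold in WT cells. With Fzd5 higher and Fzd6 slightly lower, without passing, in KO cells, the summed level of both receptors was 39.4 FPKM in KO cells and 39.4 FPKM in WT cells. The Fzd5 row lies on chromosome 9 (71439388 to 71446726, rn6) and the Fzd6 row on chromosome 7 (77899320 to 77931151, rn6).

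The co-receptors Lrp5 and Lrp6, single-pass receptors that work beside Frizzled, stood apart in level, with Lrp6 high and Lrp5 lowest of the 8. Lrp6 had 18.3 FPKM in KO cells and 19.6 FPKM in WT cells and did not pass, with a log2 fold of −0.095 and q = 0.997 in the authors' deposited table. Lrp5 had 0.579 FPKM in KO cells, against 1.69 FPKM in WT cells. This is 2.92-fold lower by the FPKM values, and it was called with p = 0.00015 and q = 0.0187 in the authors' deposited table. Lrp6 exceeded Lrp5 31.6-fold in KO cells and 11.6-fold in WT cells.

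Several measured facts bear on the reading of Lrp5. Its row covers 9141 bp on chromosome 1 (218883046 to 218892186, rn6), against 132365 bp for the Lrp6 row on chromosome 4 (168191582 to 168323946, rn6), although both are large genes with many exons. Its level in KO cells is under 1 FPKM. Its deposited log2 fold of −1.38 also differs from the −1.54 given by the deposited FPKM values. The call was lost at q under 0.01 and could not be made where rows with a mean under 5 FPKM were left out. The mismatch was not particular to Lrp5, since in 3 of the 8 genes, Wnt4, Lrp5 and Axin2, the deposited log2 fold differed from the FPKM ratio by over 0.01, against 1.61% of tested rows above 0 in both groups and 2.43% of rows with a mean of 1 to 5 FPKM.

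Axin2, the scaffold that Wnt signals induce and that is widely used as their readout, had 2.05 FPKM in KO cells and 2.97 FPKM in WT cells. It did not pass, with p = 0.650 and q = 0.997 in the authors' deposited table. The deposited log2 fold was −0.22, while the FPKM values gave −0.53, both negative. The Axin2 row spans 19032 bp on chromosome 10 (97212486 to 97231517, rn6).

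By level the order was Wnt7b, Fzd6, Lrp6, Wnt7a, Fzd5, Axin2, Wnt4 and Lrp5 over the mean of both groups, from 48.3 to 1.13 FPKM. In KO cells the order was the same, and in WT cells Wnt7a (21.8 FPKM) stood above Lrp6 (19.6 FPKM) and the remaining order was unchanged. With 1 value per group, whether neighbours in this order differ beyond their spread could not be assessed. The mean level of Wnt7b lay at percentile 89.7 of tested rows and that of Lrp5 at percentile 34.2.

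**Figure D2:**
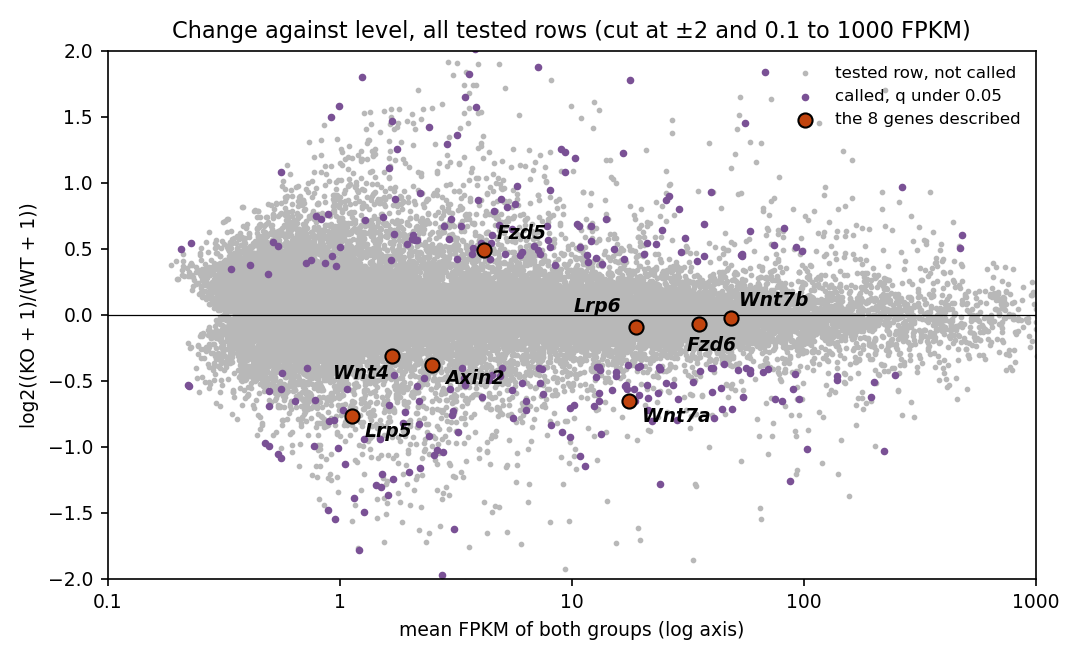
Log2((KO + 1)/(WT + 1)) against the mean FPKM of both groups for the authors' tested rows inside the plotted range, with called rows in purple and the 8 genes as orange circles. Wnt7a (−0.65) and Fzd5 (0.49) lie at the edges of the cloud of rows at their level, Lrp5 (−0.77) where the cloud is wide, and Wnt7b, Fzd6 and Lrp6 near 0.

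The spread among rows of similar level gives the scale of these changes. Of 2169 rows with a mean within 1.3-fold of that of Wnt7a, the quartiles of the log2 ratio were −0.094 and 0.087, and 1.15% were called. For Fzd5 the quartiles were −0.12 and 0.17 over 2048 rows, of which 1.37% were called. For Lrp5 they were wider, −0.15 and 0.24 over 2836 rows, of which 0.74% were called. Of the 4 rows nearest to each gene in both KO and WT level, 2 were called for Wnt7a, 0 for Fzd5 and 0 for Lrp5. How near these rows lie to each gene is not given here, and with only 4 rows per gene nothing further is read from the counts.

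The rows around the called genes held no further call. Within 1 Mb of each gene and averaging at least 1 FPKM, 26 rows near Wnt7a, 16 near Fzd5 and 73 near Lrp5 held 0 calls by the authors' Cuffdiff test. Over all 26459 tested rows the share called was 1.05%, so nothing is read from 0 calls in so few rows. Some genes, such as Chka and Rhod near Lrp5, hold several of these rows. At an unadjusted p of 0.05 or less there was 1 of these rows, Chchd4, beside Wnt7a, with a p of 0.05 itself. Among all tested rows averaging at least 1 FPKM, 6.60% had an unadjusted p under 0.05 in the same Cuffdiff test. Chchd4, a protein import factor of mitochondria, is the next named row after Wnt7a on chromosome 4 (123091052 to 123110408, rn6), 50462 bp beyond its end. Chchd4 had 17.8 FPKM in KO cells and 28.8 FPKM in WT cells, with a log2 fold of −0.69, p = 0.05 and q = 0.831 in the authors' deposited table. Its fold and that of Wnt7a were equal to 2 decimals, but the Chchd4 row did not pass. Aldh1l1, also within 1 Mb of Wnt7a, had a lower log2 ratio with 1 FPKM added, −0.79 against −0.66 for Chchd4. It did not pass either, with p = 0.063 and q = 0.885 in the authors' deposited table. Among the 26 rows near Wnt7a, 17 were lower and 9 higher in KO cells. Tmem43, the row after Chchd4, had 33.2 FPKM in KO cells and 36.7 FPKM in WT cells, and Hdac11, the nearest named row on the other side, had 9.49 FPKM in KO cells and 9.40 FPKM in WT cells. Ccnyl1, 4809 bp from Fzd5, had 11.3 FPKM in KO cells and 11.6 FPKM in WT cells. These neighbours were looked at after their values were seen.

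**Figure D3:**
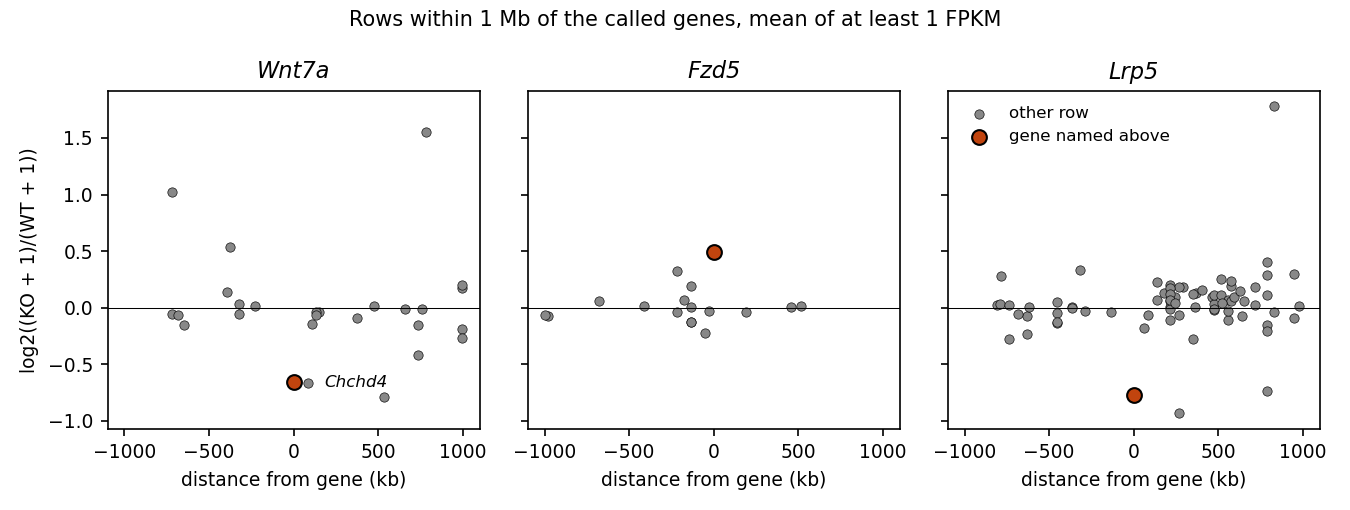
Log2((KO + 1)/(WT + 1)) of rows averaging at least 1 FPKM within 1 Mb of Wnt7a, Fzd5 and Lrp5, against the distance between row centres in kb, with the named gene as an orange circle at 0. Chchd4 (−0.66) lies beside Wnt7a (−0.65), while Ccnyl1 (−0.033), the row next to Fzd5, lies near 0.

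The rest of the pathway was read from lists of 100 other Wnt genes, of which 47 had a tested row and 53 did not. Each of the 47 was read from its longest locus, although some had several tested rows, such as Trabd2b with 10 and Cd44 with 6. None of these 47 longest rows was called at q under 0.05 by the authors' Cuffdiff test, where the share over all tested rows was 1.05%. The count was also 0 with the row of highest mean for each gene, and calls over all further rows were not counted. At an unadjusted p under 0.05 there were 7 of 47, against 6.0% of all tested rows. Of the 43 averaging at least 1 FPKM, 22 were higher and 21 lower in KO cells, but 10 were higher and 33 lower with both groups scaled to equal FPKM sums, which also turned 75.3% of all rows lower. The median log2 ratio of the 43 was 0.034, against 0.0046 over all rows averaging at least 1 FPKM.

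Of the 16 other Wnt ligands, 2 had a tested row. Wnt5b, a ligand of the beta-catenin-independent branch, had 22.3 FPKM in KO cells and 23.4 FPKM in WT cells, and Wnt11 had 1.67 FPKM in KO cells and 1.40 FPKM in WT cells. Of the ligands with a tested row, those above a few FPKM were thus Wnt7b, Wnt7a and Wnt5b. Porcn, the enzyme that attaches the lipid to Wnt proteins, had 17.1 FPKM in KO cells and 18.1 FPKM in WT cells. Gpc4, a surface proteoglycan, had 12.2 FPKM in KO cells and 11.5 FPKM in WT cells, and none of the 3 secretion genes tested passed.

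Of 8 other Frizzled genes, 2 had a tested row and neither passed. Fzd2 had 8.17 FPKM in KO cells and 6.11 FPKM in WT cells, with p = 0.00515 and q = 0.264 in the authors' deposited table. Fzd3 had 14.9 FPKM in KO cells and 14.1 FPKM in WT cells. Fzd2 was thus higher in KO cells like Fzd5, without passing. Ptk7, a pseudokinase receptor of the planar polarity branch, had 18.4 FPKM in KO cells and 23.5 FPKM in WT cells, with q = 0.274. Ryk, another Wnt-binding pseudokinase receptor, had 43.0 FPKM in KO cells and 43.7 FPKM in WT cells.

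In the axis that Znrf3 belongs to, R-spondins and Lgr receptors spare Frizzled from removal. Of 8 other genes listed for it, 3 had a tested row, none of them an R-spondin, and none was called. Rnf43, the ligase related to Znrf3, had 2.53 FPKM in KO cells and 3.37 FPKM in WT cells, with p = 0.0687 and q = 0.904 in the authors' deposited table. Lgr4, an R-spondin receptor, had 6.57 FPKM in KO cells and 5.65 FPKM in WT cells. Of 15 inhibitors at the membrane or outside the cell, 2 had a tested row. Kremen1, a Dickkopf receptor, had 19.4 FPKM in KO cells and 20.02 FPKM in WT cells, and Kremen2 was under 1 FPKM in both groups.

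In the cytoplasm, 15 of 18 listed genes had a tested row and their median log2 ratio was −0.0041. Amer1, a membrane-bound partner of Apc in the destruction complex, came nearest to a call. It had 9.63 FPKM in KO cells and 7.30 FPKM in WT cells, a log2 fold of 0.40 with p = 0.00055 and q = 0.0514 in the authors' deposited table. Ctnnb1, beta-catenin itself, had 233 FPKM in KO cells and 285 FPKM in WT cells, with p = 0.0101 and q = 0.397 in the authors' deposited table. Gsk3a, one of the kinases that mark beta-catenin for degradation, had 220 FPKM in KO cells and 211 FPKM in WT cells. The widest ratio of the lists, 0.81, belonged to Apc2, a row of 1462 bp with 1.61 FPKM in KO cells and 0.492 FPKM in WT cells that did not pass and was named after its values were seen.

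Among 10 tested nuclear factors, none passed. Tle3, a co-repressor of the Groucho family, had 5.61 FPKM in KO cells and 9.58 FPKM in WT cells, with p = 0.00265 and q = 0.166 in the authors' deposited table. Tle4, of the same family, had 24.3 FPKM in KO cells and 20.1 FPKM in WT cells, with q = 0.807. Tle1, another co-repressor, had 17.8 FPKM in KO cells and 19.2 FPKM in WT cells. Of 17 genes known to respond to beta-catenin, 9 had a tested row and none passed. Ccnd1, cyclin D1, had 208.2 FPKM in KO cells and 203.4 FPKM in WT cells, and Cd44, a hyaluronan receptor, had 126 FPKM in KO cells and 135 FPKM in WT cells. Met, the receptor of hepatocyte growth factor, had 108 FPKM in KO cells and 91.3 FPKM in WT cells, with p = 0.0296 and q = 0.712 in the authors' deposited table.

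**Figure D4:**
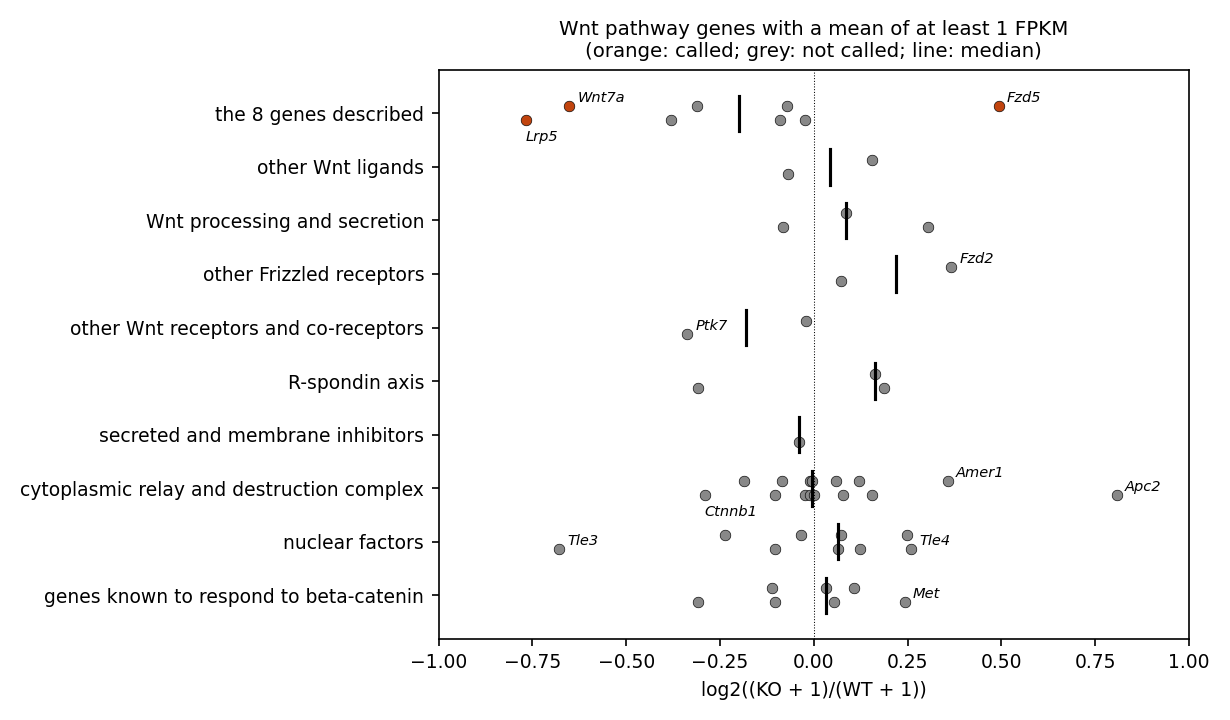
Log2((KO + 1)/(WT + 1)) of Wnt pathway genes averaging at least 1 FPKM, by list, with 1 point per gene in each list (orange where called, grey where not) and a line at each median. Rnf43 is drawn both in the R-spondin axis and among the genes known to respond to beta-catenin. Calls are seen only in the top line, at Lrp5, Wnt7a and Fzd5, whose genes were chosen with their values known, and the 43 other genes lie from −0.68 (Tle3) to 0.81 (Apc2).

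The start sites of Wnt7a, Fzd5 and Axin2 are shown because Wnt7a and Fzd5 changed in opposite directions and Axin2 is the textbook target of TCF/LEF factors. RefSeq (GRCr8) gave a window of 250 bases before to 50 after the start for 4 of the 10 genes, namely Wnt7a, Wnt4, Fzd5 and Axin2. Capitals mark the TCF/LEF core motif, searched as CTTTGA or CTTTGT on both strands, where matches on opposite strands can share an end base. The windows lie at chr4:125466100-125466399 on the minus strand for Wnt7a, at chr9:73613990-73614289 on the minus strand for Fzd5 and at chr10:94398535-94398834 on the plus strand for Axin2.
Wnt7a: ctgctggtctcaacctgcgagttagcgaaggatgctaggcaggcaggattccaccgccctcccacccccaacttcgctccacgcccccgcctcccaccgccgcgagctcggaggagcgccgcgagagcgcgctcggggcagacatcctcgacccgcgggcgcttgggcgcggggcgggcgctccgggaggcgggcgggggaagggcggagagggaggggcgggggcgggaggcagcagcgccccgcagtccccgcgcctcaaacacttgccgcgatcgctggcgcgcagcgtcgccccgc
Fzd5: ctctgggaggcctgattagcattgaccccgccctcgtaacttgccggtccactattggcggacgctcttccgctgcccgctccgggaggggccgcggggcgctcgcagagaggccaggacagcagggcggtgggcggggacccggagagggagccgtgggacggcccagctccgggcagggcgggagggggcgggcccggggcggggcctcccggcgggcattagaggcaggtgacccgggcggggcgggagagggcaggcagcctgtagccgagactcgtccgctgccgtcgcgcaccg
Axin2: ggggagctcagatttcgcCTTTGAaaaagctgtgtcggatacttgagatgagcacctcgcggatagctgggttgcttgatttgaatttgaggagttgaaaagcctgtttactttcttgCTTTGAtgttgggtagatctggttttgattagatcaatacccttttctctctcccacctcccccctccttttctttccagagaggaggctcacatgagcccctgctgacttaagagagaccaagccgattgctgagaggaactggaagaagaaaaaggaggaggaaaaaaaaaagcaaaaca

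The Axin2 window held 2 matches, both CTTTGA, which begin 232 and 132 bases before the start. At least 1 match was present in 31.4% and at least 2 in 7.03% of 33469 rat windows of the same length. The windows of Wnt7a, Fzd5 and Wnt4 held no match. Wnt7a, Fzd5 and Wnt4 shared a GC-rich start, with 76.0%, 75.7% and 83.3% GC and 42, 34 and 53 CpG pairs, against a median of 51.7% GC and 7 CpG pairs over all windows. The share of windows with a match was not computed for windows of like GC content, so the lack of one is not read as a contrast to Axin2. The Axin2 window had 45.7% GC and 5 CpG pairs, and the start used for it lies inside the full span that RefSeq gives the gene, so it may not be the start used in these cells. The GC-rich windows belong to a gene that fell, a gene that rose and a gene that did not pass.

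The cells carried the epithelial markers that their label calls for. Of 6 such markers 5 had a tested row, from 121 to 419 FPKM in KO cells and from 103 to 501 FPKM in WT cells, and none was called. Of the 7 fibroblast markers Col1a1 alone had a tested row, with 1.17 FPKM in KO cells and 1.43 FPKM in WT cells, and none of the 5 endothelial markers had one. The 3 leukocyte markers with a tested row summed to 30.3 FPKM in KO cells and 39.7 FPKM in WT cells, mostly from Cd79a. Among them Csf1r was called lower, with 0.2004 FPKM in KO cells and 0.791 FPKM in WT cells. The 2 smooth muscle markers with a tested row summed to 4.32 FPKM in KO cells and 2.25 FPKM in WT cells, uncalled. The part of other cells in the Wnt values was not tested, and fewer cells of a type and less RNA per cell cannot be told apart in such samples.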

How the data were processed

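Per the labels' protocols, total RNA was made into stranded libraries by the dUTP method. Reads were handled with TopHat (listed as 0.9), Cufflinks 2.2.1 and Cuffdiff 2.2.1.3 on rn6, per the submitters' processing notes. The annotation used is not given in the sources used here. Per the file headers, the authors deposited 1 FPKM value per group, a log2 fold, a test score, p-values and q-values. FPKM keeps no read depth, and values are unstable for short loci.

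Of 26751 rows, 26459 were tested by the authors and 7071 have no symbol. The deposited q-values equalled Benjamini-Hochberg adjustment over the tested rows when recomputed, and a recomputed adjustment was tested on simulated data. A call is q under 0.05 in the authors' deposited table. Because values per sample were lacking, limma, which had been foreseen for them, was not run. Numbers were read with decimal commas, and ratios use a pseudocount of 1 FPKM.

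The members, lists and alternatives were chosen with earlier results of these data known. Named list genes are the 2 with the highest mean in each list and those with an unadjusted p under 0.05, up to 4 per list. Any further gene was named once its values had been seen. Python 3.11.15, pandas 2.3.3, NumPy 2.4.6 and matplotlib 3.10.9 were used.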

Additional observations from a re-analysis of the deposited data

How the results depend on the processing

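The count of 3 called genes was 1 (Wnt7a) with q recomputed over rows averaging at least 5 FPKM, where Fzd5 and Lrp5 are left out, and 1 (Lrp5) with at least a 2-fold change as well. It was 2 or 3 under the other 5 settings. Among the other Wnt genes the count of 0 became 1, Amer1, at q under 0.1 and with q recomputed over rows averaging at least 1 FPKM (q = 0.0404) or 5 FPKM (q = 0.0386). None of 56 values of the 8 genes under other pseudocounts, scalings, folds or rows changed sign. Many of them could not, since an equal pseudocount in both groups keeps the sign and only 1 gene, Wnt7b, had more than 1 tested row. The count therefore says little about direction. Small log2 ratios shifted, such as that of Wnt7b to −0.18 with equal FPKM sums. On the scale of the KO over WT ratio itself, 2 of the 56 values moved by at least 1.5 times, both of Lrp5. Its log2 ratio became −1.40 with a pseudocount of 0.1 and −1.38 with the authors' fold column. The median of the 8 genes ranged from −0.32 to −0.0995. Scaling to equal FPKM sums moved the median of all rows to −0.14 and that of the other Wnt genes to −0.13, so directions of single uncalled genes near 0 depend on it. No paired analysis was possible because samples were pooled by group. Leaving out each replicate and the replicate block were not run for that cause.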
